A study of Canis lupus familiaris with 15 samples.

Results

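The corpus luteum (CL) is the ovarian gland that makes progesterone (P4) throughout the second part of the canine oestrous cycle, in pregnant and non-pregnant dogs alike. Described here are the solute carriers (gene symbols beginning with SLC or SLCO) and the ATP-binding cassette (ABC) proteins whose mRNA was counted by RNA-Seq in the CL of 15 dogs. Members were found by symbol. Symbols were taken from the gene lists published with these data, which pair 2970 of 23630 gene identifiers with a name, and 87 of these names belong to the families, 78 to solute carriers and 9 to ABC proteins. A gene carries a name in those lists only because it passed a p-value limit between groups of these same dogs. For mid-gestation against antigestagen, the lists also hold genes that met the unadjusted limit without passing the adjusted one. Carriers of the dog genome that were not listed could not be found. The members were thus chosen by the counts of these dogs, through the fold changes and p-values of the 4 contrasts described below. All 87 members passed the filter on low counts, which asked for 10 reads on average in any of the groups and kept 14922 genes.

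Mid-gestation was represented by 5 dogs on days 35 to 40, antigestagen treatment by 5 pregnant dogs, prepartum luteolysis by 3 pregnant dogs, and luteal regression by 2 dogs that were not pregnant, on day 65. Treated dogs received the antigestagen aglepristone, which occupies the P4 receptor, between days 40 and 45. The dose of 10 mg/kg was given 2 times with 24 h in between, and 24 h later the CL was removed. Luteolysis was recognised in peripheral blood, sampled every 6 h from day 58, when 3 consecutive P4 values were below 2 to 3 ng/ml. All dogs were healthy cross-bred bitches of 2 to 8 years, with 1 library of poly-A selected RNA per dog, so each dog is an independent replicate. Below, the dogs of a group are always given in the same order: Nescafe, Turgay, Dardanel, Gold and Kurtulus for mid-gestation, Citir, Suzan, Birnur, Seran and Zeynep for antigestagen, Amy, Kimba and Senta for luteolysis, and Lissy and Mara for luteal regression.

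Solute carriers move sugars, amino acids, metals, other ions, organic acids, vitamins and nucleotides across the plasma membrane and the membranes of organelles, either down a gradient or coupled to sodium, protons or a second solute. ABC transporters pump lipids, conjugates and drugs at the cost of ATP, and a few ABC proteins have no membrane part and act on ribosomes. Steroid-producing cells depend on such proteins for fuel, for metals used by mitochondrial enzymes and for the export of conjugated products, and macrophages that enter a regressing gland bring carriers of their own. In whole tissue, fewer cells of a type and less RNA per cell cannot be told apart.

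Total counts per dog were between 8558743 and 26284315, and replicate dogs differed far beyond the sampling noise of the counts, with a chi-squared per degree of freedom between 32.1 and 260.7. Levels are given in CPM, that is, read counts brought to equal library size by TMM. Differences are log2 ratios, in which the group named first is divided by the group named second, with a standard error (SE) from 1 edgeR model of all 15 dogs. A ratio of mid-gestation or luteal regression to luteolysis is thus negative where luteolysis was higher. A CPM is not corrected for gene length, and levels are therefore compared between dogs and not between genes. In the luteolysis group Amy stood apart from Kimba and Senta. Amy was nearer to the mid-gestation mean than both in 62 of 87 members (71.3%, against 47.4% of all genes in the fit). Many members were named by contrasts with luteolysis, so this share follows in part from their choice. Of the markers set for other cells, 8 of 12 leukocyte genes, 4 of 5 endothelial genes and 5 of 6 stromal genes had an identifier, and none of them was at 0 in any dog. Identifiers came from the same gene lists, so these markers, too, were chosen by the counts of these dogs. Their sums are a description and no independent measure of cell content. The summed level of the 8 leukocyte genes was 206.8 CPM in Amy, 648.5 in Kimba and 646.9 in Senta, against 152 to 280 at mid-gestation, 199 to 357 after antigestagen (357.4 in Seran) and 114 in both luteal regression dogs. The 4 endothelial genes summed to 413.8 CPM in Amy, 916.8 in Kimba and 829.3 in Senta, against 227 to 597 at mid-gestation, 425 to 844 after antigestagen (843.7 in Seran) and 264 and 273 in luteal regression. The 5 stromal genes summed to 2539 CPM in Amy, 4582 in Kimba and 1906 in Senta, against 3690 to 14900 at mid-gestation, 3380 to 9220 after antigestagen and 5370 to 7040 in luteal regression. The part of these cells in the differences below was not tested. Of 7 luteal markers only PRLR and CYP17A1 had an identifier, and 0 of 2 erythroid markers did, so that the identity of the tissue was not checked further. PRLR and CYP17A1 summed to 335 to 912 CPM at mid-gestation, 184 to 365 after antigestagen, 206 to 408 at luteolysis and 693 to 923 in luteal regression. The part of luteal cells was not tested either.

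Since the members were named by the comparisons of these dogs, their differences in those comparisons are a description. The numbers of calls there are given only to show how large the differences were, and no p-value of a single member is given. In “mid-gestation over luteolysis” 34 of 87 members met the criteria for a call (p-value under 0.01, adjusted p-value under 0.1), where 8.16% of all genes did. Of these members 24 were higher at luteolysis (5.73% of all genes) and 10 at mid-gestation (2.43%). In “luteal regression over luteolysis” 21 of 86 members were called, beside 5.11% of all genes, 19 of them higher at luteolysis (3.58%) and 2 in luteal regression (1.52%). In “luteolysis over antigestagen” 20 of 86 were called, beside 4.75% of all genes, 13 of them higher at luteolysis (3.12%) and 7 after antigestagen (1.62%). In “mid-gestation over antigestagen” 0 of 82 members and 0% of all genes were called by edgeR, with 16 members and 6.81% of all genes at an unadjusted p-value below 0.05, while DESeq2 called SLC11A2 and SLC31A2. Nothing can be read from these shares, as the way members got their names fixes them. At the edge of the criteria in “mid-gestation over luteolysis”, SLC2A10 was just inside at a log2 ratio of 0.85 (SE 0.28), and SLC38A7 and SLC7A4 just outside at 0.54 (SE 0.18) and 1.67 (SE 0.56).

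These counts, like those over all genes, rested on single dogs. Without Senta, 1 member (SLC41A2) was called in “mid-gestation over luteolysis” and 0 in both other contrasts with luteolysis. Over all genes, 112 were then called in “mid-gestation over luteolysis”, 5 in “luteal regression over luteolysis” and 6 in “luteolysis over antigestagen”. Without Kimba the counts were 13 in “mid-gestation over luteolysis”, 20 in “luteal regression over luteolysis” and 5 in “luteolysis over antigestagen”, where 474, 1035 and 229 of all genes were called. Without Amy they were 46, 37 and 42 members and 2434, 1593 and 2169 of all genes. Leaving out Lissy or Mara leaves 1 luteal regression dog, which is assumed to vary like the other groups. Calls of these fits are therefore not given. “Luteal regression over luteolysis” had 12 calls without Birnur and 11 without Gold. “Luteolysis over antigestagen” had 13 without Suzan, 9 without Birnur, 12 without Seran and 10 without Zeynep. Over all genes, 518, 320, 507 and 437 were then called, against 687 with all dogs. In “luteal regression over luteolysis” 460 of all genes were called without Birnur and 443 without Gold, against 754 with all dogs. In models that held no other dogs than those compared, the calls were 12 members and 422 of all genes in “mid-gestation over luteolysis”. They were 0 members in both others, with 0 of all genes called in “luteal regression over luteolysis” and 3 in “luteolysis over antigestagen”.

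**Figure D1:**
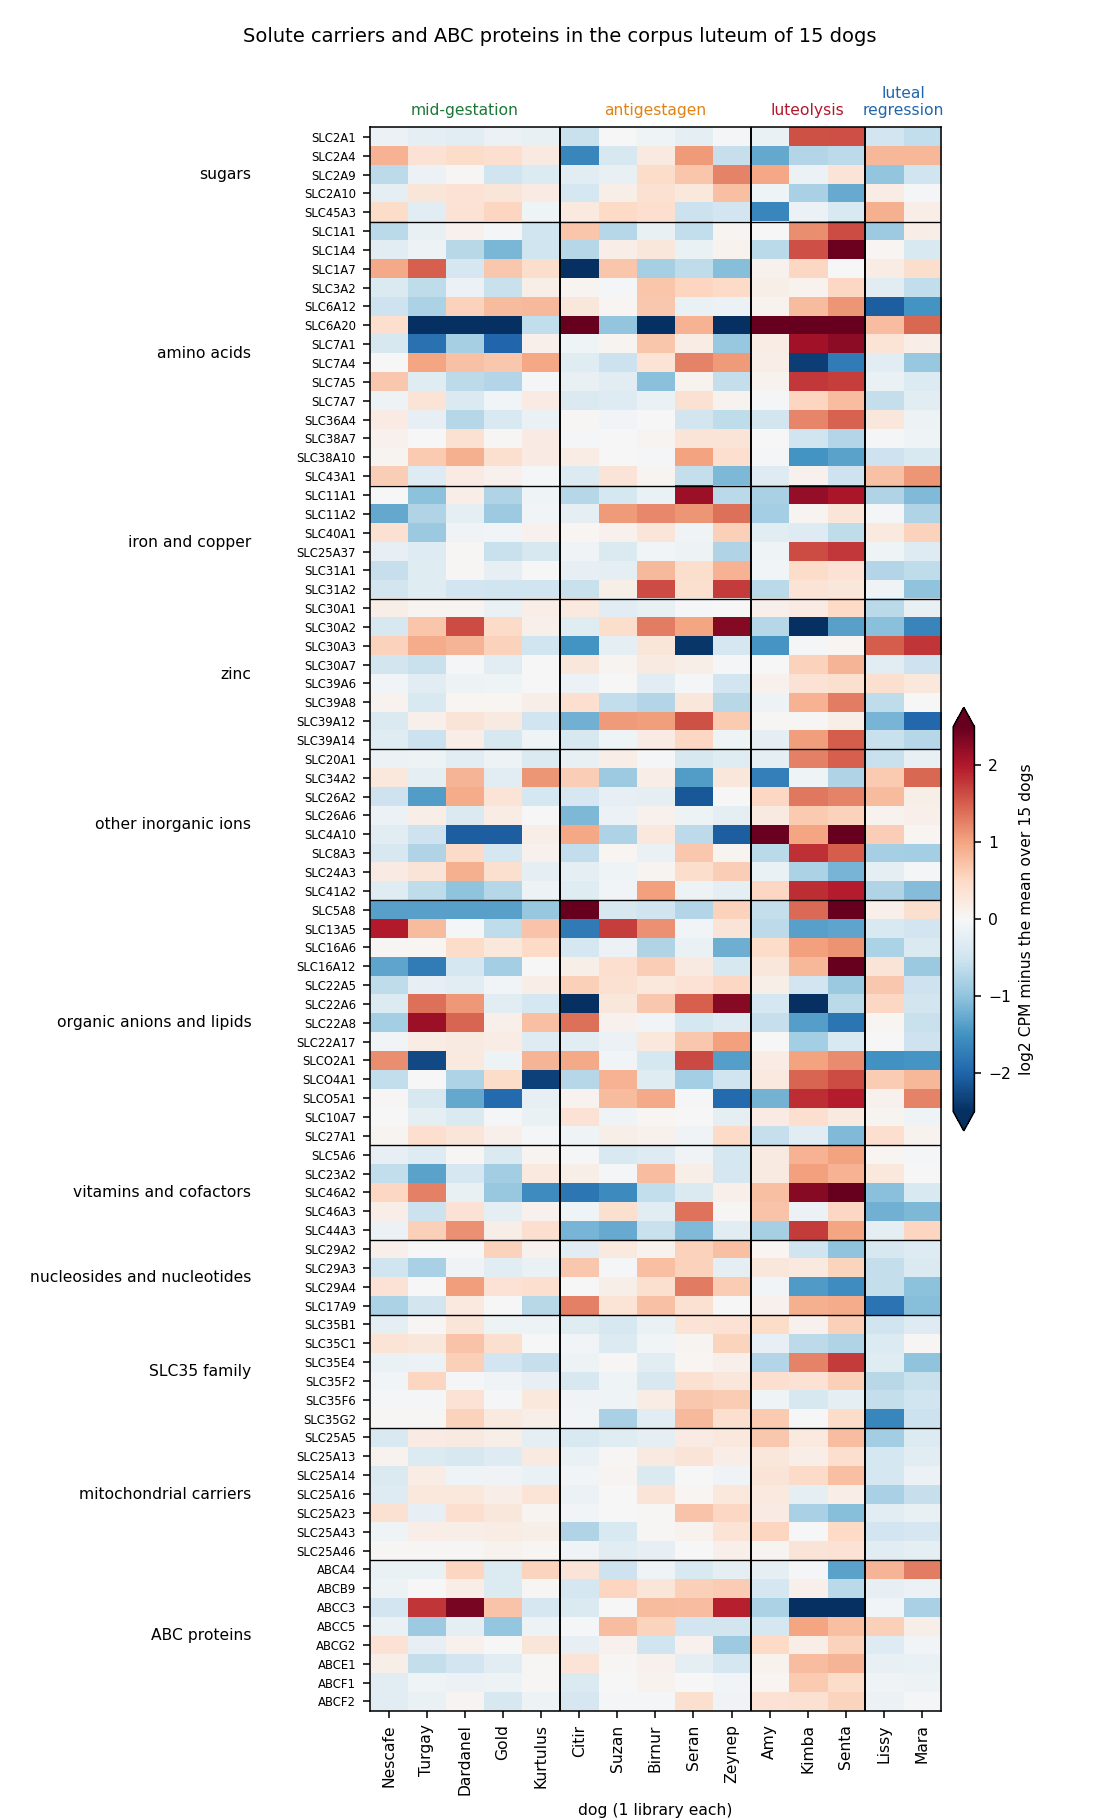
Levels of 84 of the 87 members (rows, by class) in the 15 dogs (columns, by group) as log2 CPM minus the mean of the member over all dogs, with red above and blue below that mean and the colour scale ending at ±2.5. Kimba and Senta share red rows among sugar, amino acid, iron, zinc and ion carriers in which Amy is pale, and both luteal regression dogs are pale to blue in the SLC35 and mitochondrial carriers.

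The group with the highest mean was luteolysis for 51 of 87 members (58.6%, against 30.6% of all genes), antigestagen for 17 (19.5%, against 18.9%), mid-gestation for 10 (11.5%, against 17.7%) and luteal regression for 9 (10.3%, against 32.9%). The lowest mean was in luteal regression for 34 members (39.1%, against 31.3% of all genes) and at luteolysis for 24 (27.6%, against 26.1%). It was at mid-gestation for 18 (20.7% of members and of all genes) and after antigestagen for 11 (12.6%, against 21.9%). These counts, too, follow in part from how members were named. The median SD of log2 CPM over members was 0.52 at luteolysis, 0.43 after antigestagen, 0.29 at mid-gestation and 0.23 in luteal regression, and over all genes it was 0.41, 0.41, 0.34 and 0.16.

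Glucose carriers differed in direction. SLC2A1 (ENSCAFG00000002500), the glucose carrier GLUT1 found in nearly all cells, was at 45.1, 42.3, 40.8, 45.0 and 43.8 CPM at mid-gestation, 33.8, 50.1, 46.1, 42.0 and 48.9 after antigestagen, 44.3, 149.9 and 153 at luteolysis and 35.5 and 32.3 in luteal regression. Kimba and Senta lay above every other dog, whereas Amy lay within the mid-gestation range. The log2 ratio of “mid-gestation over luteolysis” was −1.41 (SE 0.28), that of “luteal regression over luteolysis” −1.77 (SE 0.38) and that of “luteolysis over antigestagen” 1.39 (SE 0.28). SLC2A4 (ENSCAFG00000016126), the insulin-responsive carrier GLUT4 of muscle and fat, was at 2.36, 1.64, 1.77, 1.72 and 1.47 CPM at mid-gestation, 0.333, 0.923, 1.48, 2.72 and 0.808 after antigestagen, 0.450, 0.712 and 0.754 at luteolysis and 2.30 and 2.31 in luteal regression. Here all 3 luteolysis dogs lay below all mid-gestation and both luteal regression dogs, at log2 ratios of 1.47 (SE 0.52) and 1.83 (SE 0.61), while the antigestagen dogs spread over the whole range. SLC2A10, another glucose carrier, was lower at luteolysis than at mid-gestation (16.6 ± 6.93 against 30.0 ± 4.64 CPM, mean ± SD), and SLC45A3 was higher in luteal regression (16.7 ± 5.91) than at luteolysis (7.36 ± 3.41 CPM, with Amy lowest). SLC2A9, which carries urate, was listed for antigestagen against mid-gestation, with 5.34, 5.59, 8.89, 10.5 and 15.2 CPM against 4.04, 5.81, 6.50, 4.49 and 5.00 CPM and overlapping groups. 

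Among amino acid carriers SLC7A5 and SLC7A1 were highest in Kimba and Senta, as SLC2A1 was. SLC7A5 (ENSCAFG00000019901), the light chain LAT1 that exchanges leucine and other large neutral amino acids, was at 106, 53.6, 42.1, 39.8 and 65.2 CPM at mid-gestation, 57.9, 54.6, 31.9, 70.4 and 43.7 after antigestagen, 70.9, 227 and 219 at luteolysis and 59.4 and 52.6 in luteal regression. Kimba and Senta were the 2 highest dogs, and Amy lay below Nescafe of the mid-gestation group. The log2 ratios of mid-gestation and of luteal regression to luteolysis were −1.49 (SE 0.37) and −1.62 (SE 0.50), and that of luteolysis to antigestagen 1.74 (SE 0.37). SLC3A2 (ENSCAFG00000015495), the CD98 heavy chain with which LAT1 reaches the plasma membrane, was at 75.2, 62.0, 86.8, 65.4 and 106 CPM at mid-gestation, 101, 95.2, 156, 140.1 and 135 after antigestagen, 107, 102 and 138 at luteolysis and 79.2 and 63.1 in luteal regression. It did not share the pattern of its partner: Kimba was at a level reached by Kurtulus, and the antigestagen group, from which it got its name, was higher than mid-gestation (log2 ratio of “mid-gestation over antigestagen” −0.66, SE 0.19) with Citir and Suzan inside the mid-gestation range.

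SLC7A1 (ENSCAFG00000006660), the arginine and lysine carrier CAT1, was at 4.62, 1.59, 3.41, 1.46 and 6.65 CPM at mid-gestation, 5.67, 6.41, 9.94, 6.92 and 3.13 after antigestagen, 6.98, 26.6 and 29.2 at luteolysis and 7.78 and 6.88 in luteal regression. Kimba and Senta were again the highest dogs, with Amy near the luteal regression dogs, and the log2 ratio of mid-gestation to luteolysis was −2.55 (SE 0.51). SLC1A4 (ENSCAFG00000003180), a carrier of alanine, serine and cysteine, was at 11.4, 12.5, 8.45, 6.16 and 9.63 CPM at mid-gestation, 8.34, 15.4, 16.7, 12.2 and 14.6 after antigestagen, 8.56, 42.2 and 75.2 at luteolysis and 14.2 and 10.6 in luteal regression. Senta was far above Kimba, and the log2 ratio of “mid-gestation over luteolysis” was −2.13 (SE 0.45) with and −1.38 without Senta, that of “luteolysis over antigestagen” 1.64 (SE 0.44) and 0.90. SLC7A7 (ENSCAFG00000011177), a further light chain of CD98 that exports cationic amino acids, differed little, at 7.24, 10.1, 6.18, 7.52 and 9.17 CPM at mid-gestation, 6.11, 6.31, 7.10, 10.4 and 8.48 after antigestagen, 7.73, 11.5 and 13.7 at luteolysis and 5.18 and 6.57 in luteal regression. The luteal regression dogs were below the luteolysis dogs at a log2 ratio of −0.90 (SE 0.33), and the other groups overlapped with both.

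Of the other amino acid carriers, SLC36A4 was at 34.9, 113 and 134 CPM at luteolysis against 41.4 ± 9.83 CPM at mid-gestation, and SLC1A1, a glutamate carrier, at 2.55, 5.93 and 8.23 against 2.18 ± 0.495 CPM. SLC6A20, a proline carrier, was an exception in that Amy was the highest dog, with 29.6, 15.9 and 17.6 CPM at luteolysis. The counts behind it were 394, 402 and 304 reads at luteolysis, 44 and 68 in luteal regression and 32, 0, 0, 1 and 21 at mid-gestation. After antigestagen they ran from 0 to 118 reads, with Citir highest. The lysosomal glutamine carrier SLC38A7 and SLC38A10 went the other way. SLC38A10 was at 379.5, 138 and 154 CPM at luteolysis, below the 407 to 726 CPM of mid-gestation, and its log2 ratio to antigestagen was −1.17 (SE 0.34) with and −1.77 without Amy. SLC7A4 was at 7.51, 1.23 and 1.91 against 6.72 to 13.4 CPM. SLC43A1, which carries branched-chain amino acids, was higher in luteal regression (17.6 and 22.8 CPM) than at luteolysis (8.41, 11.4 and 7.36 CPM). The betaine carrier SLC6A12 had 0 and 1 reads in luteal regression against 5, 17 and 15 at luteolysis, too few for a fold. SLC1A7, a glutamate carrier, was at 3.12 ± 1.47 CPM at mid-gestation, against 1.22 ± 1.04 CPM in treated dogs, with overlap. In all, 7 of 14 amino acid carriers were called in “mid-gestation over luteolysis” (8.16% of all genes), 6 of them higher at luteolysis (5.73%). In “luteal regression over luteolysis” 2 of 14 were called (5.11% of all genes) and in “luteolysis over antigestagen” 5 of 14 (4.75%).

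**Figure D2:**
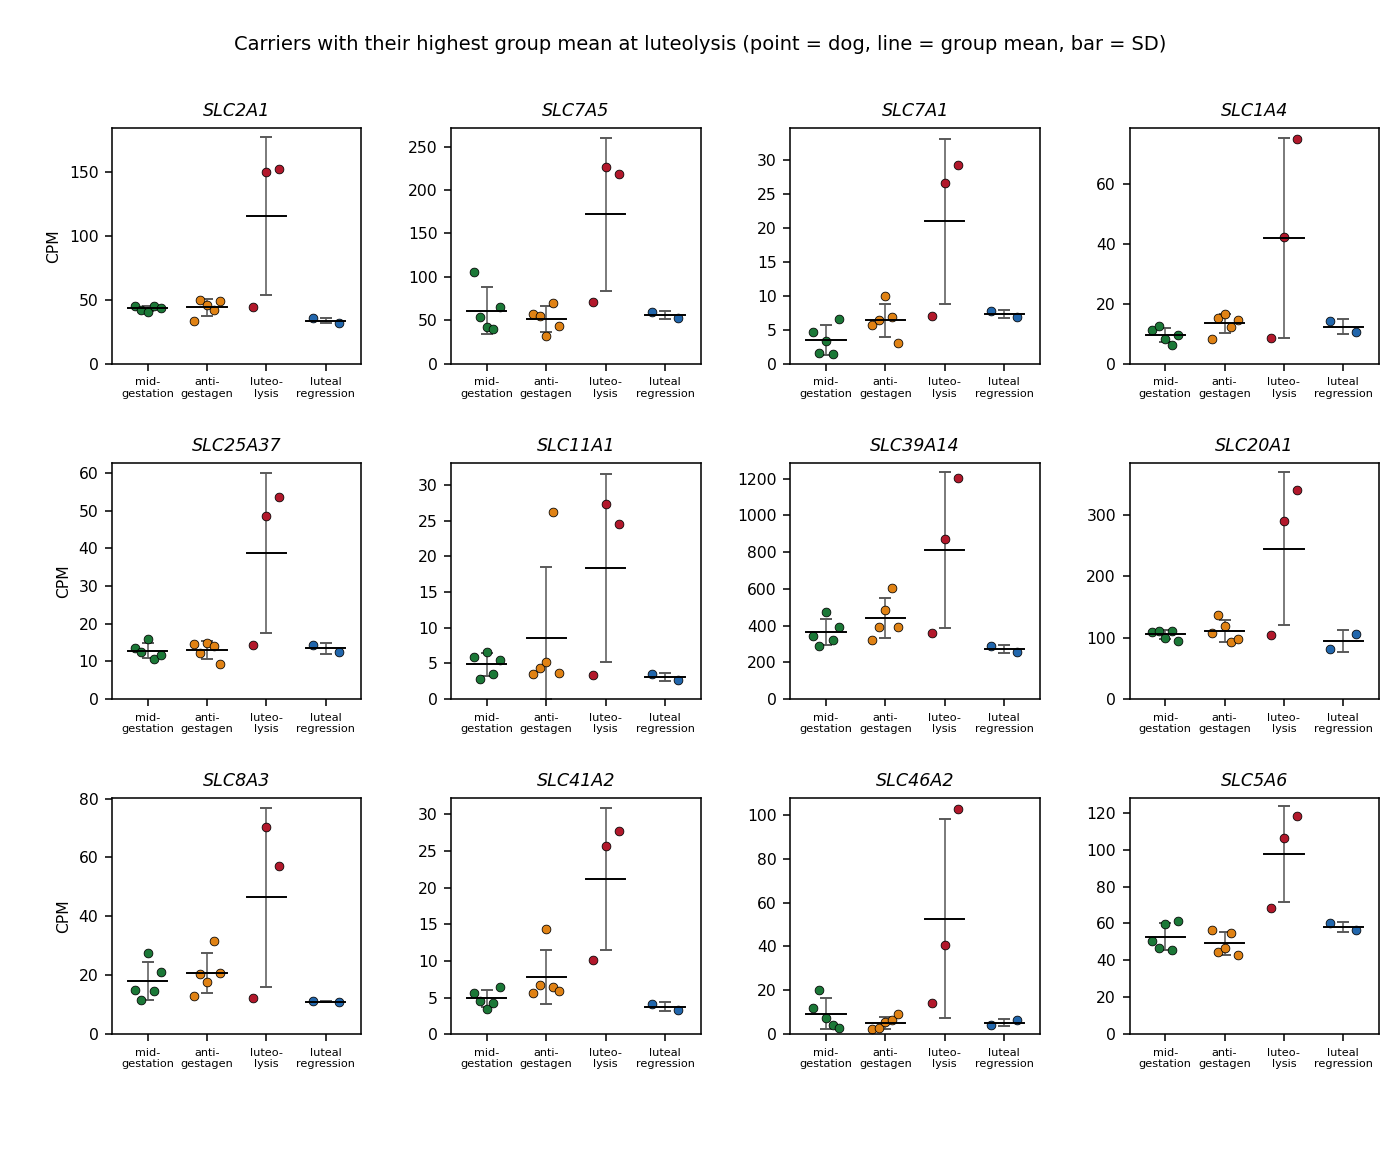
CPM of 12 carriers with their highest group mean at luteolysis, on linear axes from 0 (points are dogs, the horizontal line is the group mean and the bar its SD, cut off at 0). In every panel Kimba and Senta are the upper luteolysis dogs and Amy the lowest, close to the other groups in most panels, and in SLC11A1 the antigestagen dog Seran is at the level of Kimba and Senta. The panels are a choice from 51 members with their highest mean at luteolysis. In others of these, such as SLC6A20 and SLC25A5, Amy is not the lowest luteolysis dog.

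Iron and copper carriers differed in which group was highest. SLC11A1 (ENSCAFG00000014645), the NRAMP1 carrier that macrophages and neutrophils use to withdraw iron and manganese from phagosomes, was at 5.93, 2.83, 6.63, 3.45 and 5.43 CPM at mid-gestation, 3.56, 4.31, 5.23, 26.3 and 3.63 after antigestagen, 3.30, 27.3 and 24.6 at luteolysis and 3.47 and 2.67 in luteal regression. Kimba, Seran and Senta formed the upper dogs, and the same dogs had the 3 highest summed leukocyte levels, 648.5, 357.4 and 646.9 CPM. They also had the 3 highest endothelial sums, 916.8, 843.7 and 829.3 CPM. Both sums hold only markers that the same lists name, and the part of either cell type in SLC11A1 was not tested. The log2 ratios to luteolysis were −1.93 (SE 0.67) at mid-gestation and −2.58 (SE 0.96) in luteal regression. SLC25A37 (ENSCAFG00000009114), mitoferrin, which brings iron into mitochondria for haem and iron-sulphur clusters, was at 13.5, 12.5, 15.8, 10.5 and 11.7 CPM at mid-gestation, 14.6, 12.2, 14.9, 14.2 and 9.19 after antigestagen, 14.4, 48.5 and 53.5 at luteolysis and 14.4 and 12.5 in luteal regression. Kimba and Senta stood above the 13 other dogs, which all lay between 9.19 and 15.8 CPM, and the log2 ratios were −1.60 (SE 0.31), −1.53 (SE 0.42) and 1.58 (SE 0.31) for mid-gestation to luteolysis, luteal regression to luteolysis, and luteolysis to antigestagen.

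SLC11A2 (ENSCAFG00000007902), the ferrous iron carrier DMT1, showed another order, at 20.8, 30.2, 43.1, 26.8 and 48.1 CPM at mid-gestation, 42.5, 106, 116, 109 and 132 after antigestagen, 28.1, 53.2 and 62.3 at luteolysis and 49.9 and 30.2 in luteal regression. With the exception of Citir, the antigestagen dogs were above all other dogs, and the log2 ratio of “mid-gestation over antigestagen” was −1.58 (SE 0.32). SLC40A1 (ENSCAFG00000009343), ferroportin, the iron exporter, was at 103, 41.2, 73.7, 75.4 and 85.1 CPM at mid-gestation, 80.9, 84.6, 96.8, 73.6 and 119.5 after antigestagen, 65.8, 63.0 and 50.9 at luteolysis and 93.5 and 118 in luteal regression. The luteolysis dogs were below both luteal regression dogs, which had a log2 ratio to them of 0.82 (SE 0.30), and Turgay of the mid-gestation group was lower still. SLC31A1 (ENSCAFG00000003215), the copper importer CTR1, was at 78.4, 96.0, 121, 102 and 117 CPM at mid-gestation, 102, 99.7, 207, 160.5 and 214 after antigestagen, 113, 162 and 151 at luteolysis and 70.8 and 75.4 in luteal regression. Birnur, Seran and Zeynep were high while Citir and Suzan lay within the mid-gestation range, and the luteal regression dogs were the lowest of all dogs, at −0.96 (SE 0.33) to luteolysis. Its relative SLC31A2 was highest in Birnur and Zeynep, with 4.78, 7.84, 22.3, 9.35 and 24.0 CPM after antigestagen against 4.96 to 5.70 CPM at mid-gestation, and the log2 ratio of mid-gestation to antigestagen was −1.40 (SE 0.39).

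Among zinc carriers SLC39A14 (ENSCAFG00000009425), the importer ZIP14 that also carries iron and manganese, was at 343, 290.2, 474, 321 and 393 CPM at mid-gestation, 321, 394, 485, 604 and 394 after antigestagen, 359.8, 871 and 1202 at luteolysis and 287 and 257 in luteal regression. Kimba and Senta were the highest dogs and Seran was next, and the log2 ratio of “mid-gestation over luteolysis” was −1.16 (SE 0.30) with and −0.74 without Senta. SLC39A8 (ENSCAFG00000010689), the related importer ZIP8, was at 10.5, 7.55, 10.2, 10.2 and 10.9 CPM at mid-gestation, 13.2, 6.41, 5.93, 12.1 and 6.06 after antigestagen, 9.08, 18.2 and 24.3 at luteolysis and 6.31 and 9.96 in luteal regression. Kimba and Senta were again highest, Amy was below the mean of mid-gestation, and the log2 ratio of “luteolysis over antigestagen” was 0.98 (SE 0.34). The exporter SLC30A1 (ENSCAFG00000031999) varied less, at 144, 138, 136, 117 and 147 CPM at mid-gestation, 156, 108, 115, 128 and 130.3 after antigestagen, 142, 152 and 183 at luteolysis and 82.2 and 114 in luteal regression. The luteal regression dogs were below the luteolysis dogs at a log2 ratio of −0.70 (SE 0.21), though Suzan of the antigestagen group was lower than Mara.

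The other zinc carriers differed in both directions. SLC30A2, an exporter into vesicles, was at 8.18, 2.33 and 5.22 CPM at luteolysis against 10.3 to 42.0 CPM at mid-gestation, 10.9 to 66.7 CPM in treated dogs, and at 6.50 and 4.21 CPM in luteal regression. SLC30A3 was highest in luteal regression, at 6.11 and 7.34 CPM against 0.676, 1.98 and 2.14 CPM at luteolysis. SLC39A12 was lowest there, at 8.85 and 5.03 against 20.3, 20.4 and 22.1 CPM, although Citir was at 8.67 CPM. SLC30A7, which loads zinc into the secretory pathway, was at 15.7 ± 4.53 CPM at luteolysis and 9.17 ± 1.55 CPM at mid-gestation, and SLC39A6 at 52.1 ± 5.83 and 39.2 ± 2.76 CPM, with luteal regression at 53.3 ± 3.67 CPM near luteolysis.

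Of the carriers of phosphate, calcium and magnesium, SLC20A1, SLC8A3 and SLC41A2 were highest in Kimba and Senta. SLC20A1 (ENSCAFG00000007200), a sodium-coupled phosphate importer, was at 109, 111, 99.5, 112 and 94.4 CPM at mid-gestation, 107, 136, 119, 92.2 and 98.2 after antigestagen, 104, 290.3 and 341 at luteolysis and 82.3 and 107 in luteal regression. Amy lay within the range of mid-gestation, and the log2 ratios were −1.22 (SE 0.27), −1.38 (SE 0.36) and 1.15 (SE 0.27), in the same order of contrasts as for SLC25A37. SLC8A3 (ENSCAFG00000023919), a sodium-calcium exchanger, was at 15.1, 11.7, 27.6, 14.7 and 21.2 CPM at mid-gestation, 12.9, 20.4, 17.7, 31.5 and 20.8 after antigestagen, 12.3, 70.2 and 57.0 at luteolysis and 11.1 and 10.98 in luteal regression. Both luteal regression dogs were below every other dog, and the log2 ratio to luteolysis was −2.08 (SE 0.58). SLC41A2, a magnesium carrier, was at 10.1, 25.7 and 27.8 CPM at luteolysis, and here Amy, too, exceeded the mid-gestation dogs (3.47 to 6.47 CPM) and the luteal regression dogs (4.16 and 3.28 CPM), but not Birnur (14.4 CPM).

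SLC24A3, which exchanges sodium for calcium and potassium, was lower at luteolysis (33.3 ± 12.1 CPM) than at mid-gestation (67.2 ± 19.0 CPM), with Amy above Kurtulus. The sulphate carrier SLC26A2 and the anion exchanger SLC26A6 were at 9.01, 15.8 and 14.96 and 16.5, 22.3 and 21.2 CPM at luteolysis, above all antigestagen dogs (1.36 to 6.26 and 6.45 to 15.3 CPM). The phosphate carrier SLC34A2 was at 3.57 and 6.16 CPM in luteal regression and 0.601, 2.06 and 1.28 CPM at luteolysis. SLC4A10, a bicarbonate carrier, had 32, 20 and 54 reads at luteolysis and 5, 4, 0, 0 and 11 at mid-gestation, so that its ratio was not used.

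Carriers of organic acids and lipids showed varied patterns. SLC16A6 (ENSCAFG00000011086), a monocarboxylate carrier linked to ketone body export, was at 21.6, 21.8, 29.1, 25.3 and 30.1 CPM at mid-gestation, 15.7, 19.2, 12.5, 18.9 and 8.99 after antigestagen, 29.1, 43.0 and 46.3 at luteolysis and 12.3 and 16.4 in luteal regression. The antigestagen dogs were all below the mid-gestation dogs and below the luteolysis dogs, at log2 ratios of mid-gestation and luteolysis to antigestagen of 0.76 (SE 0.21) and 1.39 (SE 0.24), and the luteal regression dogs were at the antigestagen level. SLC13A5 (ENSCAFG00000015368), the citrate importer of the plasma membrane, was at 11.8, 5.09, 2.84, 1.83 and 4.85 CPM at mid-gestation, 0.778, 9.90, 6.54, 2.78 and 3.63 after antigestagen, 1.802, 1.07 and 1.10 at luteolysis and 2.20 and 2.05 in luteal regression. The luteolysis dogs were below all mid-gestation dogs (narrowly so for Amy and Gold) and Citir was the lowest of all dogs. SLC27A1 (ENSCAFG00000015315), a fatty acid transport protein, was at 76.1, 98.0, 90.2, 79.9 and 71.3 CPM at mid-gestation, 67.8, 80.6, 78.9, 68.4 and 102 after antigestagen, 48.6, 60.1 and 33.7 at luteolysis and 97.8 and 77.9 in luteal regression. All 3 luteolysis dogs were below all other dogs, with log2 ratios of 0.81 (SE 0.20), 0.89 (SE 0.24) and −0.74 (SE 0.20) in that order. SLCO2A1 (ENSCAFG00000006695), which takes up prostaglandins, the luteolytic signal of many species, was at 25.4, 2.26, 13.4, 10.3 and 20.5 CPM at mid-gestation, 21.9, 10.7, 8.28, 35.5 and 4.24 after antigestagen, 12.8, 22.7 and 25.7 at luteolysis and 3.86 and 4.00 in luteal regression. The luteal regression dogs were below all luteolysis dogs at a log2 ratio of −2.38 (SE 0.89), but Turgay was lower still and Zeynep close to them.

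Among the rest of this class, SLC16A12, a creatine carrier, was at 18.0, 26.5 and 105 CPM at luteolysis against 4.32 to 14.7 CPM at mid-gestation, and its log2 ratio of −2.50 (SE 0.50) was −1.33 without Senta. SLC22A5, the carnitine importer, was at 40.5 ± 3.75 CPM after antigestagen and 23.4 ± 8.80 CPM at luteolysis, with no overlap, and its relative SLC22A17 at 335 ± 130.0 and 197 ± 58.3 CPM, with overlap. SLC10A7 was at 17.4 ± 1.39 CPM at luteolysis and 12.7 ± 1.26 CPM at mid-gestation. The organic anion carriers SLC22A6 and SLC22A8 and the carriers SLCO4A1, SLCO5A1 and SLC5A8 were near the limit of detection in most dogs. SLC22A8 had 2, 1 and 0 reads at luteolysis and 2, 31, 15, 6 and 15 at mid-gestation, and SLC5A8, which takes up lactate and short-chain fatty acids, had 0, 0, 0, 0 and 1 reads at mid-gestation and 1, 16 and 55 at luteolysis. SLCO4A1 was at 0.751, 1.90 and 2.14 CPM at luteolysis against 0.0359 to 0.887 CPM at mid-gestation, SLCO5A1 at 0.0751, 1.38 and 1.51 against 0 to 0.315 CPM, and SLC22A6 at 0.826, 0.119 and 0.696 against 0.111 to 6.06 CPM after antigestagen.

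All 5 carriers of vitamins and cofactors had the higher mean at luteolysis than at mid-gestation and in luteal regression. Against luteolysis, 48.1% of all genes had the higher mean at mid-gestation and 46.8% in luteal regression. SLC5A6, SLC23A2, SLC46A2 and SLC46A3 were listed for 1 or both of these contrasts, so the count follows in part from how members were named. SLC5A6 (ENSCAFG00000004818), the carrier of biotin and pantothenate, was at 50.5, 46.6, 59.8, 45.6 and 61.5 CPM at mid-gestation, 56.6, 44.6, 46.8, 54.9 and 43.0 after antigestagen, 68.2, 106 and 118 at luteolysis and 60.1 and 56.3 in luteal regression. It separated all 3 luteolysis dogs, Amy included, from all other dogs, at log2 ratios of −0.89 (SE 0.18), −0.75 (SE 0.23) and 0.99 (SE 0.18) in that order. SLC23A2, which takes up vitamin C, a compound the CL is rich in, was at 100.3, 175 and 156 CPM at luteolysis against 55.5, 33.5, 64.2, 46.6 and 101 CPM at mid-gestation, and Kurtulus lay just above Amy. SLC46A2 was at 14.1, 40.9 and 103 CPM at luteolysis against 2.73 to 20.2 CPM at mid-gestation, and its log2 ratio of −2.50 (SE 0.63) was −1.53 without Senta. SLC46A3, a lysosomal carrier, was at 32.7 and 34.6 CPM in luteal regression, below all other dogs (lowest 52.2 CPM, Turgay). SLC44A3, a choline-transporter-like protein, was at 0.308 to 0.707 CPM after antigestagen and 0.787 to 2.08 CPM at mid-gestation, without overlap, and its log2 ratio of 2.04 (SE 0.55) for “luteolysis over antigestagen” was 1.36 without Kimba.

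Of the nucleoside and nucleotide carriers, SLC29A3 (ENSCAFG00000014339), the nucleoside carrier of lysosomes, was at 3.41, 2.72, 4.61, 3.97 and 4.31 CPM at mid-gestation, 7.89, 4.77, 8.28, 7.33 and 4.14 after antigestagen, 6.01, 5.81 and 7.19 at luteolysis and 3.18 and 3.80 in luteal regression. Antigestagen dogs were higher than mid-gestation dogs, with Zeynep inside their range, and all luteolysis dogs were higher as well. The log2 ratios of mid-gestation to antigestagen and to luteolysis were −0.77 (SE 0.24) and −0.73 (SE 0.27). SLC17A9 (ENSCAFG00000012759), which fills vesicles with ATP, was at 0.840, 1.08, 1.83, 1.51 and 0.899 CPM at mid-gestation, 3.78, 1.95, 2.61, 2.01 and 1.51 after antigestagen, 1.65, 2.93 and 3.01 at luteolysis and 0.342 and 0.667 in luteal regression. The luteal regression dogs were the lowest of all dogs, at −2.32 (SE 0.57) to luteolysis, from 7 and 13 reads. SLC29A4, a monoamine carrier, was at 80.6, 31.7 and 28.7 CPM at luteolysis and 56.4 and 41.5 CPM in luteal regression, below all mid-gestation dogs (83.9 to 175 CPM), and SLC29A2 was at 3.53 ± 1.33 CPM at luteolysis and 5.97 ± 1.66 CPM after antigestagen.

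Well-studied carriers of the SLC35 family bring nucleotide sugars and nucleotides into the endoplasmic reticulum and Golgi. This function is not implied for every member of the class. SLC35B1 (ENSCAFG00000016946), which supplies ATP to the endoplasmic reticulum, was at 63.0, 75.8, 91.7, 67.4 and 67.7 CPM at mid-gestation, 60.3, 56.3, 65.8, 93.5 and 94.5 after antigestagen, 101, 79.6 and 111 at luteolysis and 52.0 and 58.9 in luteal regression. Kimba was the lowest luteolysis dog here, and both luteal regression dogs were below all luteolysis dogs at a log2 ratio of −0.81 (SE 0.26). SLC35F2 and SLC35G2 were likewise lowest in luteal regression, at 50.2 and 55.4 and 9.19 and 19.6 CPM against 109, 105 and 123 and 44.9, 28.3 and 39.1 CPM at luteolysis, with Suzan (16.2 CPM) below Mara in SLC35G2. The GDP-fucose carrier SLC35C1 was lower at luteolysis (21.2, 15.5 and 14.5 CPM) than at mid-gestation (24.4 to 40.3 CPM), SLC35E4 was higher in Kimba and Senta (1.58, 6.48 and 9.27 against 1.76 to 4.10 CPM), and SLC35F6 was at 60.8 ± 6.26 CPM at luteolysis and 88.8 ± 23.6 CPM after antigestagen.

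Of the mitochondrial carriers 7 of 8 had a lower mean in luteal regression than at luteolysis, at log2 ratios between −1.15 and 0.21, while 46.8% of all genes had the higher mean in luteal regression. Of them 3 were called, all higher at luteolysis, where 3.58% of all genes were. SLC25A5, SLC25A13, SLC25A14, SLC25A16, SLC25A43 and SLC25A46 were listed for this very contrast, so these counts follow in part from how members were named. The median log2 ratio was −0.70 in this class and −0.70 over all members. SLC25A5 (ENSCAFG00000018384), an exchanger of ADP and ATP in the inner membrane, was at 76.0, 115, 117, 109.7 and 85.6 CPM at mid-gestation, 76.1, 80.5, 84.4, 115 and 119.6 after antigestagen, 158, 117 and 169 at luteolysis and 54.8 and 79.0 in luteal regression. Amy and Senta were the highest dogs and Kimba was at the upper level of the other groups. The log2 ratio of “luteal regression over luteolysis” was −1.15 (SE 0.28). Reads of this gene may be shared with its near-identical relatives, and how such reads were counted is not given in the sources used here. SLC25A16 was at 38.6 and 45.2 CPM in luteal regression, below all other dogs (lowest 54.3 CPM, Nescafe). SLC25A14 was at 13.8 ± 2.16 CPM at luteolysis, 8.88 ± 1.23 CPM at mid-gestation and 7.78 ± 1.11 CPM in luteal regression. SLC25A13, which exchanges aspartate and glutamate, SLC25A43 and SLC25A46 were at 34.9 ± 3.06, 6.61 ± 1.31 and 79.8 ± 8.73 CPM at luteolysis against 22.5 ± 1.97, 3.71 ± 0.126 and 55.6 ± 1.47 CPM in luteal regression. SLC25A23 was lower in Kimba and Senta (44.0, 21.5 and 18.1 CPM at luteolysis, against 36.4 to 62.5 CPM after antigestagen).

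**Figure D3:**
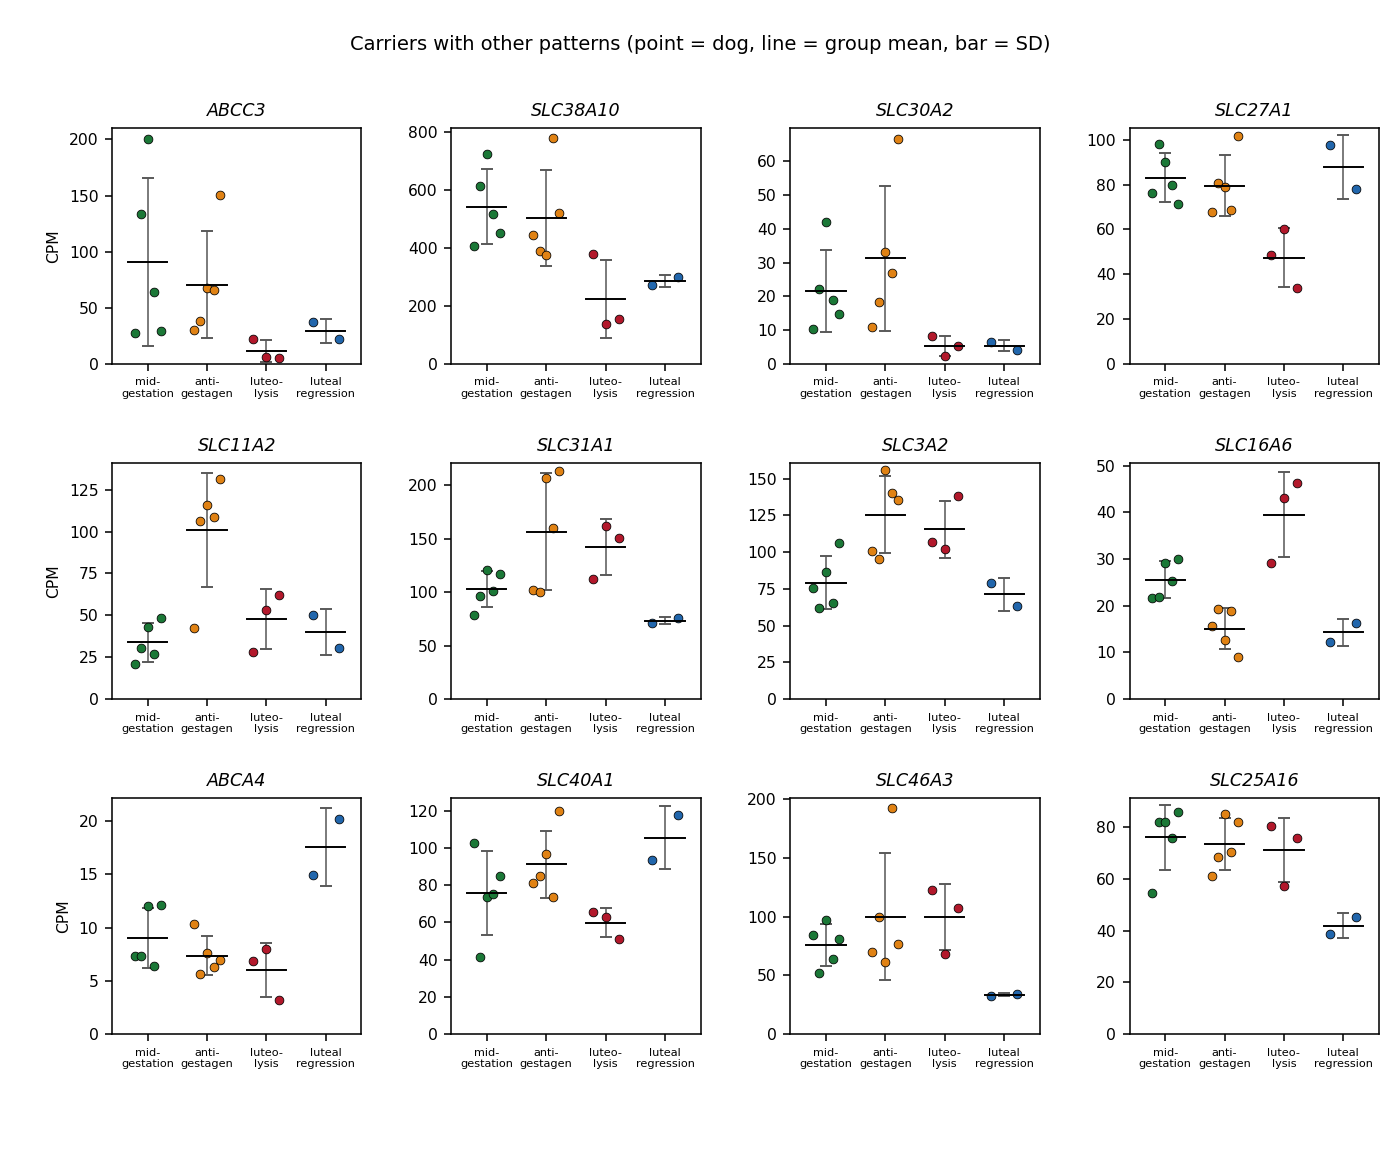
CPM of 12 members that show other group patterns, on linear axes from 0 (points are dogs, the horizontal line is the group mean and the bar its SD, cut off at 0). ABCC3, SLC38A10, SLC30A2 and SLC27A1 are low at luteolysis, and SLC30A2 is as low in luteal regression. SLC11A2, SLC31A1 and SLC3A2 are highest after antigestagen. SLC16A6 is lower after antigestagen and in luteal regression than in the other groups. ABCA4 and SLC40A1 are high and SLC46A3 and SLC25A16 low in luteal regression.

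Among ABC proteins, ABCC3 (ENSCAFG00000017201), the exporter MRP3 of glucuronides and other organic anions, was at 27.9, 134, 200.5, 64.0 and 28.9 CPM at mid-gestation, 30.1, 38.5, 67.5, 66.0 and 150.2 after antigestagen, 22.5, 6.33 and 5.33 at luteolysis and 37.1 and 22.1 in luteal regression. The luteolysis dogs were below all mid-gestation dogs, Kimba and Senta more so than Amy, at a log2 ratio of 3.01 (SE 0.78), and mid-gestation itself spread from 27.9 to 200.5 CPM. ABCG2 (ENSCAFG00000009638), an exporter of drugs and conjugates, was at 19.5, 13.1, 16.5, 14.98 and 18.7 CPM at mid-gestation, 13.1, 16.3, 10.8, 16.4 and 8.08 after antigestagen, 21.5, 17.0 and 22.7 at luteolysis and 12.1 and 14.5 in luteal regression. The luteolysis dogs were above all antigestagen dogs at 0.65 (SE 0.23) but not above all mid-gestation dogs. ABCA4 (ENSCAFG00000020121), a retinoid flippase known from the retina, was at 7.35, 7.30, 12.0, 6.42 and 12.1 CPM at mid-gestation, 10.3, 5.69, 7.58, 6.27 and 6.97 after antigestagen, 6.91, 7.95 and 3.19 at luteolysis and 14.96 and 20.2 in luteal regression. Both luteal regression dogs were above all other dogs, and the log2 ratio to luteolysis was 1.54 (SE 0.39). ABCC5 was at 25.4, 68.1 and 58.1 CPM at luteolysis against 17.7 to 31.6 CPM at mid-gestation, and the lysosomal peptide carrier ABCB9 at 13.7 ± 4.07 CPM against 21.8 ± 5.67 CPM after antigestagen.

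The 3 members without a membrane part had their highest mean at luteolysis, as did 30.6% of all genes. All were listed for “mid-gestation over luteolysis”. ABCE1 (ENSCAFG00000007597), which splits ribosomes after translation, was at 57.5, 34.5, 37.2, 42.5 and 53.0 CPM at mid-gestation, 66.1, 53.2, 56.0, 44.0 and 38.0 after antigestagen, 55.3, 88.7 and 93.8 at luteolysis and 45.7 and 45.9 in luteal regression. Kimba and Senta were the highest dogs, and Amy was below Nescafe, Citir and Birnur. ABCF1 and ABCF2, which act in translation, were at 75.9, 117 and 101 and 26.0, 26.2 and 29.6 CPM at luteolysis against 61.4 to 74.95 and 15.2 to 21.1 CPM at mid-gestation, and the log2 ratios of “mid-gestation over luteolysis” were −0.82 (SE 0.22), −0.53 (SE 0.15) and −0.62 (SE 0.18) for ABCE1, ABCF1 and ABCF2.

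**Figure D4:**
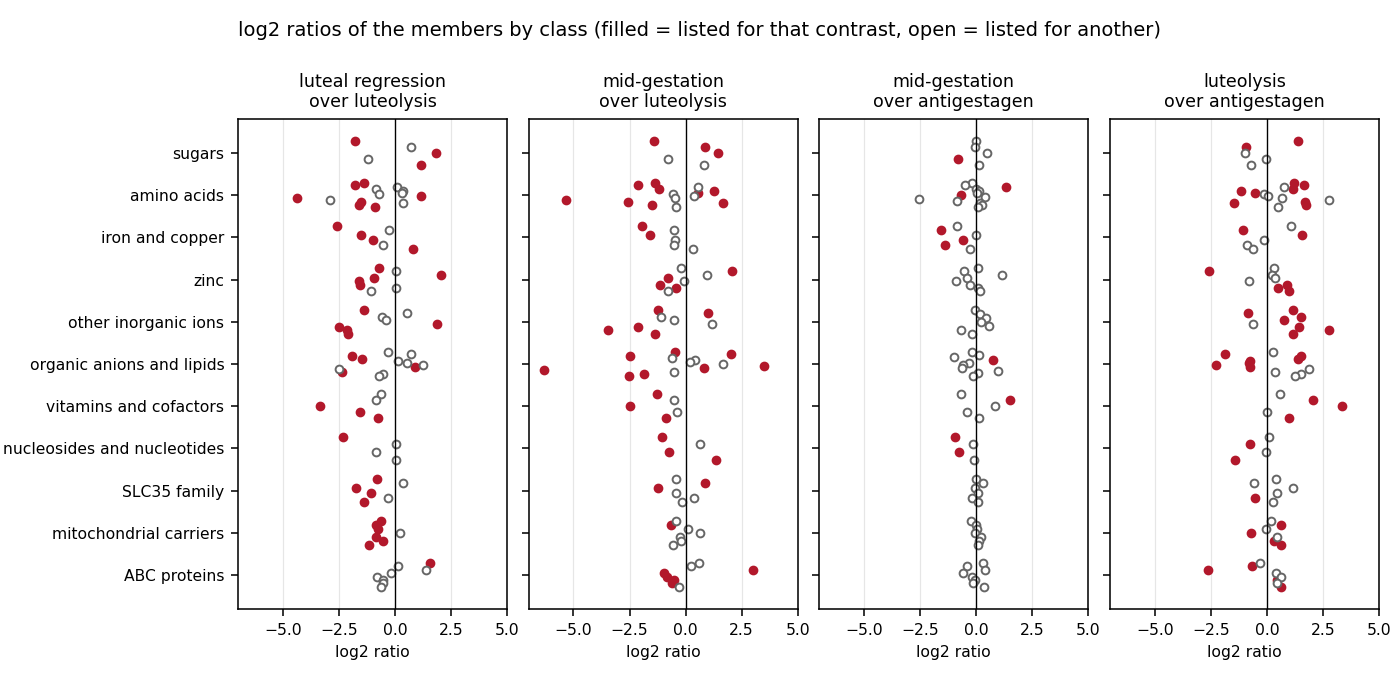
Log2 ratios of 84 members in the 4 contrasts that gave them their names, by class (each point is a member, filled where the gene was listed for that contrast and open where it was listed for another). Filled points lie away from 0 by construction. In both panels over luteolysis most points of most classes are below 0, that is, higher at luteolysis, and in “mid-gestation over antigestagen” most points lie near 0.

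Genes that work with these carriers could be looked up only as far as the same lists name them, and they are described on the same terms. Of 8 glycolytic genes 2 had an identifier. Both were called higher at luteolysis against mid-gestation (5.73% of all genes in this direction) and against antigestagen (3.12%). Identifiers came from the lists of these contrasts, so such counts follow in part from how the genes were found. HK2 (hexokinase), which traps glucose after entry, was at 0.525, 53.7 and 44.7 CPM in Amy, Kimba and Senta against 1.26 to 1.96 CPM at mid-gestation, and PFKFB3, which drives glycolysis, at 38.1, 277 and 345 against 41.0 to 52.2 CPM, so that Amy was apart from Kimba and Senta in both, as in SLC2A1. Of 8 iron genes 3 had an identifier. TF (transferrin), the iron carrier of plasma, was at 25.8, 809.7 and 1287 CPM at luteolysis against 33.9 to 60.0 CPM at mid-gestation, and TFRC, its receptor, at 71.8, 66.7 and 70.3 against 62.3 to 181 CPM. Of 8 subunits of the vacuolar proton pump with an identifier, 5 were called in “luteal regression over luteolysis” (3.58% of all genes in this direction), 2 in “mid-gestation over luteolysis” (5.73%) and 1 in “luteolysis over antigestagen” (3.12%), all higher at luteolysis. ATP7B, a copper exporter, was at 76.1, 94.0, 57.3, 118 and 61.2 CPM after antigestagen against 27.4, 13.7, 18.1, 16.7 and 100.1 CPM at mid-gestation. In the amino acid response 2 of 8 genes had an identifier. TRIB3 alone was called, higher at luteolysis in “luteal regression over luteolysis” (0.880 and 1.49 against 5.86, 5.06 and 8.29 CPM), as were 3.58% of all genes.

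For 45 of 87 members, which were listed for a single contrast, the contrast of the other 2 groups was not the one that put them on a list. Being on 1 list also means being absent from the others, which used the dogs of all groups, so that small differences in these contrasts follow in part from the choice. The values are therefore a description as well, and no test is given.

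Of the 19 members listed for “luteal regression over luteolysis” alone, 18 passed the filter in “mid-gestation over antigestagen”, at log2 ratios between −0.88 and 1.16 (median 0.07). SLC39A12 was at 15.5, 21.8, 25.05, 23.2 and 14.1 CPM at mid-gestation, against 8.67, 41.7, 41.2, 60.3 and 31.3 CPM in treated dogs, at a log2 ratio of −0.88 (SE 0.35), with Citir below and the other antigestagen dogs above all mid-gestation dogs. SLC30A3 was at 3.15, 4.01, 3.79, 3.13 and 1.44 and 0.667, 1.74, 2.57, 0.296 and 1.51 CPM, at a log2 ratio of 1.16 (SE 0.48), with Kurtulus below Suzan, Birnur and Zeynep. SLC25A13 was at 30.4, 22.6, 21.6, 22.8 and 33.1 CPM at mid-gestation and 25.6, 29.1, 33.2, 35.5 and 32.2 CPM in treated dogs (−0.25, SE 0.15).

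The 4 members listed for “mid-gestation over antigestagen” alone had log2 ratios of “luteal regression over luteolysis” between −1.19 and 0.09. SLC2A9 was at 3.18 and 4.52 CPM in luteal regression and 12.5, 5.81 and 8.06 CPM at luteolysis (−1.19, SE 0.45), and SLC3A2 at 79.2 and 63.1 and 107, 102 and 138 CPM (−0.70, SE 0.27), in both cases without overlap. SLC31A2 was at 6.65 and 3.49 and 4.43, 9.01 and 8.70 CPM and had a log2 ratio of −0.55 (SE 0.56), and SLC1A7 of 0.09 (SE 0.69).

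The 11 members listed for “luteolysis over antigestagen” alone had log2 ratios of “luteal regression over mid-gestation” between −0.67 and 0.52, and 8 of 11 had the lower mean in luteal regression. Over all members tested, 55 of 84 had the lower mean there, while 48.8% of all genes had the higher. SLC35F6 was at 47.4 and 51.0 CPM in luteal regression, below the 70.8, 70.5, 92.2, 70.7 and 86.2 CPM of mid-gestation (−0.67, SE 0.23). SLC29A2 was at 3.57 and 3.80 CPM in luteal regression and 5.19, 4.78, 4.80, 7.15 and 5.14 CPM at mid-gestation (−0.55, SE 0.35), also without overlap. SLC25A23 was at 31.0 and 33.2 and 49.3, 33.1, 50.9, 46.2 and 40.0 CPM (−0.45, SE 0.32), with Turgay between the luteal regression dogs.

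Of the 11 members listed for “mid-gestation over luteolysis” alone, 9 passed the filter in “luteal regression over antigestagen”, at log2 ratios between −0.20 and 0.96. SLCO4A1 was at 1.03 and 1.18 CPM in luteal regression and 0.333, 1.23, 0.479, 0.296 and 0.404 CPM after antigestagen, with Suzan highest (0.96, SE 0.77). SLC35C1 was at 19.3 and 24.99 and 23.1, 19.2, 23.4, 25.7 and 35.8 CPM (−0.20, SE 0.25), and ABCE1 at 45.7 and 45.9 and 66.1, 53.2, 56.0, 44.0 and 38.0 CPM (−0.17, SE 0.26), and in all 9 members the groups overlapped.

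**Figure D5:**
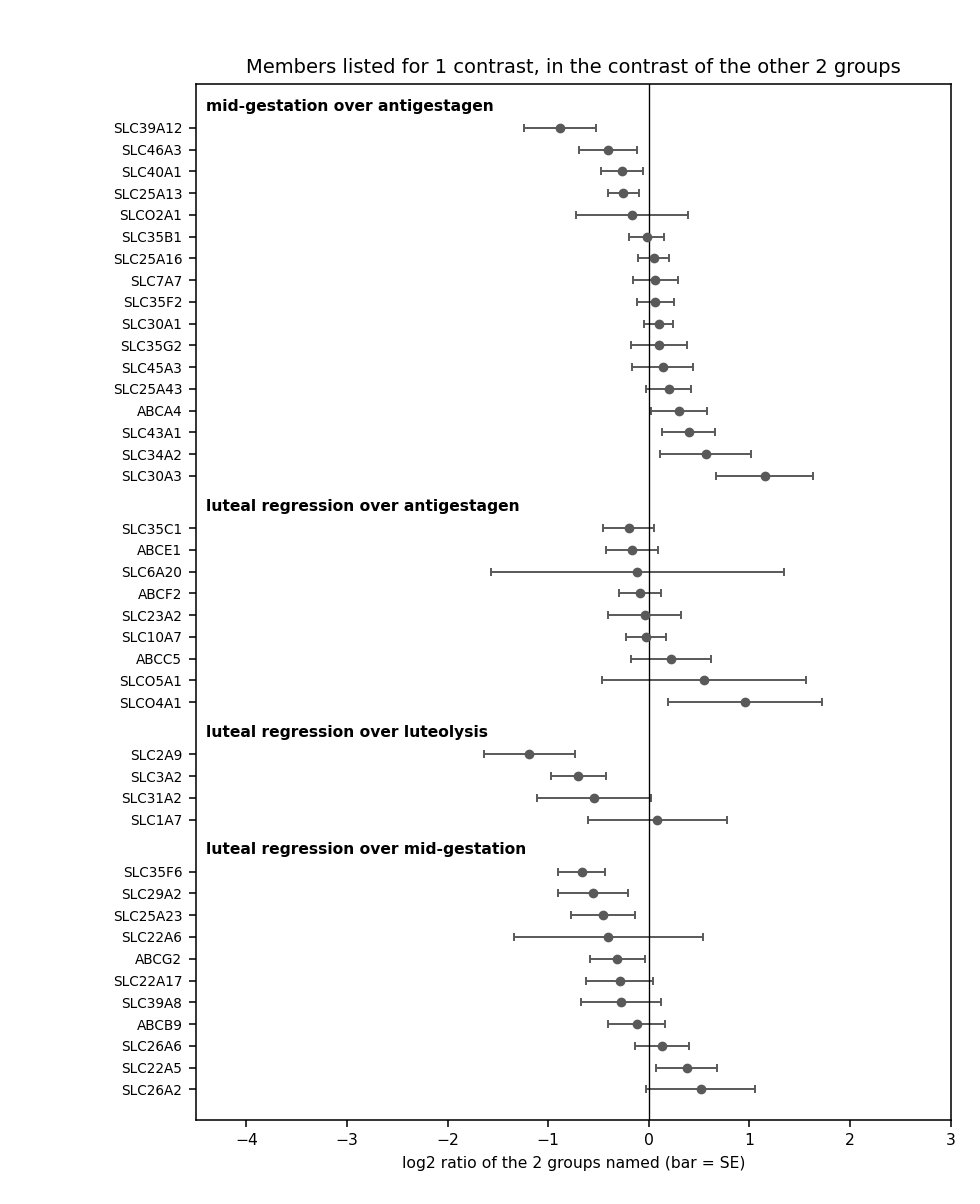
Log2 ratios (points) with SE (bars) of 41 members that were listed for a single contrast, each in the contrast of the other 2 groups and ordered by log2 ratio within it. SLC2A9 has the lowest ratio and SLC30A3 the highest, and the bars of most members reach 0 or lie near it.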

How the data were processed

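The authors sequenced poly-A selected libraries from a single end, aligned the reads to CanFam3.1 with STAR 2.5.1b, assigned them to Ensembl genes with featureCounts and deposited these raw counts unfiltered and not normalized. Whether strand was used in counting is not given in the sources used here, so overlapping genes on opposite strands may share reads. Deposited counts of at least 10000 (3148 values) are rounded to 4 significant digits. Groups follow the sample labels. For Nescafe the title and condition were followed and not its description, which names the antigestagen group's number. A luteal regression dog that the paper counts beyond Lissy and Mara was not analysed here, nor were the fold changes and p-values of the additional files, which served to pair identifiers with names and to show for which of the 4 contrasts a gene was listed. No sequence or annotation of the members was used.

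Counts were scaled with TMM and fitted in R 4.3.3 with edgeR 4.0.16 as 1 model of 15 dogs. Each contrast was tested two-sided by the quasi-likelihood F-test on genes that averaged 10 or more reads in either group, and p-values were adjusted over them by the Benjamini-Hochberg method. A call needed p under 0.01 with an adjusted p under 0.1. The SE is the absolute log2 ratio divided by the square root of F, and log2 CPM used a prior count of 2. The fit was tested on simulated data. P-values weigh the difference between groups against the spread between dogs, which was estimated over all dogs of the model.

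Members, classes and marker lists were chosen with earlier results of these data known. Values per dog are given for a fixed set of 30 members of known function and for the 3 members of smallest p-value among those of a single list in the contrast of the other 2 groups. Tests had been planned for the latter but are not given, since belonging to a single list depends on the dogs of all groups. The remaining members are named with shorter values, apart from 3 of the 87 that enter the counts but are not reported here singly. Alternatives were DESeq2 size factors and upper-quartile scaling in edgeR, no filter or a minimum average of 50 reads, the Wald test of DESeq2 1.42.0, fits of only the compared dogs, and leaving out each dog.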

Additional observations from a re-analysis of the deposited data

Results flagged for a closer look

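In groups of 5 dogs, the levels of the 87 members were searched for a dog far from the 4 others (Dixon's ratio of gap to range on log2 CPM). Of 174 groups, 14 held such a dog, and chance alone flags about 1 in 20 groups.

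After antigestagen, Seran was at 26.3 CPM for SLC11A1 (others 3.56 to 5.23) and at 1.36 CPM for SLC26A2 (others 4.67 to 6.26). Citir was at 42.5 CPM for SLC11A2 (others 106 to 132) and at 6.45 CPM for SLC26A6 (others 11.9 to 15.3), and Birnur at 14.4 CPM for SLC41A2 (others 5.67 to 6.77). At mid-gestation, Nescafe was low for SLC25A16 (54.3 CPM, others 75.6 to 85.9), SLC25A43 (4.72 CPM, others 5.64 to 5.85) and SLC2A10 (21.9 CPM, others 30.1 to 33.4). Turgay was high for SLC31A2 (5.70 CPM, others 4.96 to 5.14) and SLC35F2 (118 CPM, others 71.1 to 78.9) and low for SLC39A8 (7.55 CPM, others 10.2 to 10.9). Gold was high for SLC29A2 (7.15 CPM, others 4.78 to 5.19), and Kurtulus low for SLC30A3 (1.44 CPM, others 3.13 to 4.01). For SLC5A8 Kurtulus was at 0.0359 CPM, a single read, with the others at 0.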

How the results depend on the processing

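With other scalings and filters 15 to 19 members were called in “luteal regression over luteolysis”, 31 to 36 in “mid-gestation over luteolysis” and 15 to 21 in “luteolysis over antigestagen”. Over all genes these settings gave 529 to 814, 1006 to 1247 and 544 to 737 calls, in that order. With DESeq2's Wald test 41 members were called in “luteal regression over luteolysis”, 44 in “mid-gestation over luteolysis”, 2 in “mid-gestation over antigestagen” and 46 in “luteolysis over antigestagen”. Over all genes this test called 1563, 1744, 85 and 1481. When only the compared dogs were fitted, there were 0 in “luteal regression over luteolysis”, 12 in “mid-gestation over luteolysis” and 0 in “luteolysis over antigestagen”, with 0, 422 and 3 of all genes. In “luteal regression over mid-gestation” 770 of all genes then met the criteria, among them 1 of the members listed for “luteolysis over antigestagen” alone (SLC35F6, log2 ratio −0.65). With each dog except Lissy and Mara left out in turn, calls of members ran from 0 to 37 in “luteal regression over luteolysis”. They ran from 1 to 46 in “mid-gestation over luteolysis”, from 0 to 1 in “mid-gestation over antigestagen” and from 0 to 42 in “luteolysis over antigestagen”. Those over all genes ran from 5 to 1593, 112 to 2434, 0 to 8 and 6 to 2169. Among these fits, wherever luteolysis was compared, leaving out Senta gave the fewest calls and leaving out Amy the most. The cause was not tested. Of 3320 recomputed log2 ratios of single members (159 ratios), 3307 kept their direction and stayed within the limits set for a change, 12 moved by more than the spread between dogs, 1 (SLC35F6) came to be called and 0 reversed. No paired analysis was possible because each dog belongs to 1 group and the labels give no number that links dogs of different groups.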
